A study of Mus musculus with 8 samples.

Results

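The genes described here are 10 genes of the TGF-beta and activin branch of signalling: the ligands Tgfb1, Tgfb2 and Tgfb3, the inhibin beta subunits Inhba and Inhbb, the receptors Tgfbr1, Tgfbr2 and Tgfbr3, the latent binding protein Ltbp1 and the target gene Pmepa1. They were chosen by symbol, and each of the 10 had 1 probe set that the platform annotation pairs with that symbol alone, so all 10 were measured among 19938 genes. Hepatic stellate cells, which store vitamin A as retinyl esters around the liver sinusoids, had been sorted by their retinoid fluorescence, and the RNA of each sample was hybridised to 1 Affymetrix mouse gene array. The knockout group (4 arrays, replicates 5 to 8) came from Mx1Cre+ mice with Lhx2 floxed alleles, and the control group (4 arrays, replicates 1 to 4) from mice with Lhx2 floxed alleles and no Cre. Both groups were on a C57BL/6J background, and both received the interferon inducer poly(I:C) 3 times, with stellate cells isolated 2 weeks later. The Mx1 promoter responds to interferon in many cell types, so deletion was not restricted to stellate cells, and an effect of Cre itself cannot be told apart from loss of Lhx2, since the controls carried no Cre. The labels give no ages, and they do not say whether each array stands for a separate animal, so the p-values cover array-to-array spread, which may be technical.

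TGF-beta is secreted as a latent complex, in which the mature dimer is held by its own propeptide and anchored to the matrix by latent binding proteins such as Ltbp1. Once released, it binds the type II receptor Tgfbr2, which phosphorylates the type I receptor Tgfbr1, and this kinase activates Smad2 and Smad3. Activins are dimers of inhibin beta subunits that use related receptors and the same SMADs, and in liver TGF-beta is known as a driver of the change of stellate cells into matrix-producing myofibroblasts.

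The deleted gene Lhx2, a LIM homeobox transcription factor, had log2 levels of 11.09 to 11.49 in knockout arrays and 11.88 to 12.07 in control arrays, so the groups did not overlap and 63.3% of the control level remained (limma adjusted p = 0.00136; exact two-sided permutation p = 0.0286, the smallest that 4 against 4 arrays allow). The probes of that set may lie outside the deleted sequence. Stellate cell markers were high in both groups, with a mean over 11 markers of 12.93 to 12.98 in knockout and 13.10 to 13.19 in control arrays. All values are log2 expression values normalized by the authors with RMA, which compresses differences of dim and very bright probe sets. Array medians lay between 7.42 and 7.47, and the correlation across probe sets was 0.993 to 0.996 within the knockout group, 0.987 to 0.996 within the control group and 0.984 to 0.991 between the groups. As a guide to the level of unexpressed genes, 1194 olfactory and vomeronasal receptor genes had a median of 5.40 and a 95th percentile of 6.77.

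The TGF-beta ligands changed in opposite directions in the knockout: Tgfb2 fell to 48.9% of its control level and Tgfb3 rose 1.66-fold. Of the 10 genes, 3 rose (Tgfb3, Inhba and Tgfbr1), 2 fell (Tgfb2 and Pmepa1) and 5 did not pass an adjusted p of 0.05 in limma. Over all 19938 genes 7.38% passed, 3.76% as higher and 3.63% as lower. The groups did not overlap for 6 of the 10 genes, 3 higher and 3 lower, where the same held for 12.7% of all genes (6.38% higher and 6.32% lower). The median difference over the 10 genes was 0.08 on the log2 scale, against -0.02 over all genes. In sorted cells measured in bulk, fewer cells of a type and less RNA per cell cannot be told apart.

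**Figure D1:**
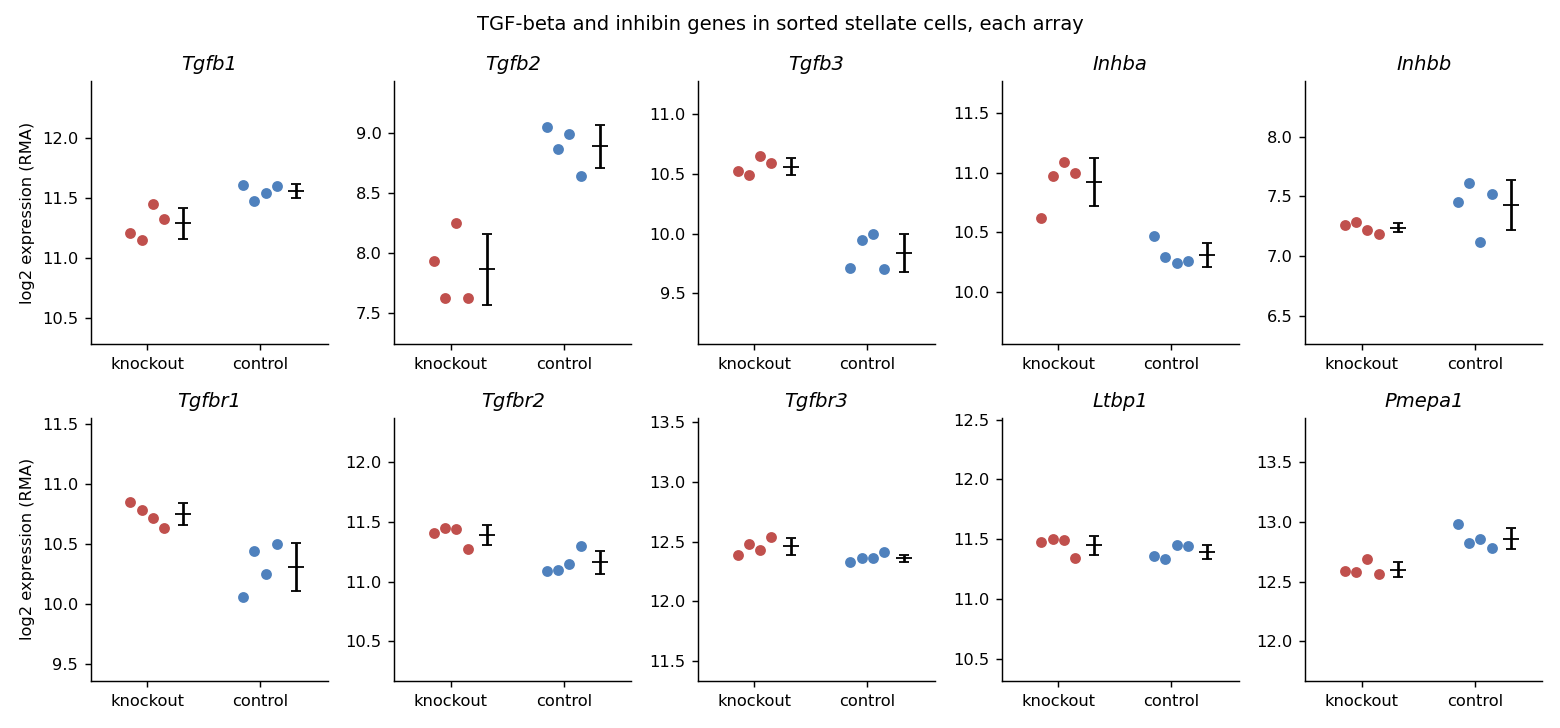
Log2 expression (RMA) of the 10 genes in each knockout (red) and control (blue) array, with the mean and SD of 4 arrays as a black mark and bar beside each group; every panel spans the same number of log2 units, centred on its own gene. Tgfb2, Tgfb3, Inhba, Tgfbr1, Pmepa1 and Tgfb1 have groups that do not overlap, and Tgfb2 has the largest difference between group means.

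Tgfb2 (probe set 10360920) encodes the TGF-beta ligand best known for its part in heart and craniofacial development, which relies on a coreceptor for tight receptor binding. Its log2 level was 7.93, 7.62, 8.25 and 7.62 in knockout arrays 5 to 8, against 9.05, 8.87, 8.99 and 8.64 in control arrays 1 to 4. The highest knockout array, replicate 7, still lay below the lowest control array. The means were 7.86 ± 0.30 in the knockout and 8.89 ± 0.18 in the control group (SD, n = 4 each), a log2 difference of -1.03 (SE 0.15, 95% interval -1.37 to -0.70, limma adjusted p = 0.00232). The difference lay between -1.17 and -0.95 in the 19 alternative settings and passed the threshold in each of them.

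Tgfb3 (probe set 10401673) encodes the ligand known for palate fusion and for repair with little scarring. It had log2 levels of 10.52, 10.49, 10.65 and 10.59 in knockout arrays 5 to 8, against 9.71, 9.95, 10 and 9.70 in control arrays 1 to 4. The 4 knockout arrays lay close together, and every one of them was above the highest control array. The means of 10.56 ± 0.07 in the knockout and 9.84 ± 0.16 in the control group (SD, n = 4 each) differed by 0.73 (SE 0.08, 95% interval 0.54 to 0.91, limma adjusted p = 0.000522), or 1.46-fold to 1.88-fold over that interval. The difference passed the threshold in all 19 alternative settings, with a lowest value of 0.59 without control 1 and control 4.

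Tgfb1 (probe set 10551185), the ligand most studied in liver fibrosis and made by stellate cells, macrophages and endothelium, did not pass the threshold. Its log2 level was 11.21, 11.15, 11.45 and 11.33 in knockout arrays 5 to 8, against 11.61, 11.48, 11.54 and 11.60 in control arrays 1 to 4. Every knockout array lay below every control array, by as little as the step between knockout 7 and control 2. The means were 11.29 ± 0.13 in the knockout and 11.56 ± 0.06 in the control group (SD, n = 4 each), a log2 difference of -0.27 (SE 0.07, 95% interval -0.43 to -0.11, limma adjusted p = 0.0523). This p crossed the threshold in 7 of 19 alternative settings: it was 0.022 without knockout 7, where the difference was -0.33, and 0.353 without control 1 and control 4, where it was -0.23.

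Inhba (probe set 10403743) encodes the beta A subunit, whose dimer is activin A. It had log2 levels of 10.62, 10.97, 11.09 and 11.00 in knockout arrays 5 to 8, against 10.47, 10.29, 10.24 and 10.26 in control arrays 1 to 4. Knockout 5 was the lowest of its group and control 1 the highest of its own, and these neighbours did not cross. Inhba rose 1.52-fold (log2 difference 0.61, SE 0.10, 95% interval 0.38 to 0.83, limma adjusted p = 0.00551). Its means were 10.92 ± 0.20 in the knockout and 10.31 ± 0.10 in the control group (SD, n = 4 each). The difference was 0.55 to 0.71 in the 19 alternative settings and passed in each.

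Inhbb (probe set 10357155), the beta B subunit of activin B, was nearer to the level of unexpressed genes and did not pass. It had log2 levels of 7.26, 7.29, 7.22 and 7.19 in knockout arrays 5 to 8, against 7.45, 7.61, 7.12 and 7.52 in control arrays 1 to 4. The knockout arrays spanned a narrow range, and control 3 lay below all of them while the other control arrays lay above. The log2 difference was -0.19 (SE 0.10, 95% interval -0.41 to 0.03, limma adjusted p = 0.394), and without control 3 it was -0.29 with an adjusted p of 0.0216.

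RefSeq promoter entries (assembly GRCm38.p6) were held for 7 of the 10 genes, and the 250 bases before the annotated start are shown for Tgfb2, which fell, Inhba, which rose, and Tgfb1, since these are ligand genes whose groups did not overlap. Capitals mark matches on either strand to TATAAA, the core of the TATA box, and to CAGAC, a core that SMAD proteins bind. The window of Tgfb2 lies on the minus strand at chr1:186705990-186706239, that of Inhba on the plus strand at chr13:16011601-16011850, and that of Tgfb1 on the plus strand at chr7:25686752-25687001.
Tgfb2: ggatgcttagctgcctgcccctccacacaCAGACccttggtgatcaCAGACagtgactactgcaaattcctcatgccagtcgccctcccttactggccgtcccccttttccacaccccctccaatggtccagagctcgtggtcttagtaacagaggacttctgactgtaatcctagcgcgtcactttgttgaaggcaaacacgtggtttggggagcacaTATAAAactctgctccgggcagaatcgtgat
Inhba: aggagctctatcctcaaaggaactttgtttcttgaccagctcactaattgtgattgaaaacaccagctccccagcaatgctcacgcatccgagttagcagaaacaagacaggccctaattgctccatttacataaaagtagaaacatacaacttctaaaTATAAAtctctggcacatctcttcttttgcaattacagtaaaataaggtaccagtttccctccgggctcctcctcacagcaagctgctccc
Tgfb1: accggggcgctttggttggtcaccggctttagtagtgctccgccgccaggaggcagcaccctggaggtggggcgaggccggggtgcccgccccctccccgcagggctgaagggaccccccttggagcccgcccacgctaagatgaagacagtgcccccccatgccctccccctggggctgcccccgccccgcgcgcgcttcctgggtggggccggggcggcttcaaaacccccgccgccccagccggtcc
TATAAA began 31 bases before the start of Tgfb2 and 91 bases before that of Inhba, and it was in 2 of the 9 windows of the 7 genes and in 12.4% of 32851 promoter windows of the same length. CAGAC was in 5 of the 9 windows, 2 matches of it in that of Tgfb2, and in 42.2% of all windows. TAATTA, a core bound by many homeodomain proteins, the class to which Lhx2 belongs, was in 0 of the 9 windows and in 4.84% of all windows. These motifs do not overlap each other in the windows shown, and a match is a description of the sequence, not a measured site.

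The receptors had higher means in the knockout than in the control group, and Tgfbr1 passed the threshold. Tgfbr1 (probe set 10504817), the type I receptor kinase also called ALK5, had log2 levels of 10.85, 10.78, 10.72 and 10.63 in knockout arrays 5 to 8, against 10.06, 10.44, 10.25 and 10.50 in control arrays 1 to 4. Control arrays 2 and 4 came close to the lowest knockout array, replicate 8, without reaching it. The means were 10.75 ± 0.09 in the knockout and 10.31 ± 0.20 in the control group (SD, n = 4 each), so Tgfbr1 rose 1.35-fold (log2 difference 0.44, SE 0.10, 95% interval 0.22 to 0.66, limma adjusted p = 0.0256). Leaving out control 3 or knockout 5, 6 or 7 lost this call (largest limma adjusted p 0.0785). So did leaving out control 1 together with control 4 (limma adjusted p = 0.0544). Over the 19 alternative settings, covariates included, the log2 difference stayed between 0.35 and 0.51.

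Tgfbr2 (probe set 10597518), the type II receptor that binds the ligand first, had log2 levels of 11.41, 11.45, 11.44 and 11.27 in knockout arrays 5 to 8, against 11.09, 11.10, 11.15 and 11.30 in control arrays 1 to 4. Knockout 8 and control 4 crossed, and the other arrays of the groups were apart. The log2 difference was 0.24 (SE 0.07, 95% interval 0.09 to 0.38, limma adjusted p = 0.0701), and without control 4 it was 0.28 with an adjusted p of 0.0405. Tgfbr3 (probe set 10532085), betaglycan, is the coreceptor that presents TGF-beta2 and also binds inhibin. Its log2 level was 12.39, 12.48, 12.43 and 12.54 in knockout arrays 5 to 8, against 12.33, 12.36, 12.36 and 12.41 in control arrays 1 to 4. The groups overlapped, and the 95% interval of the log2 difference of 0.10 ran from -0.02 to 0.21, with an upper bound of 1.16-fold.

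Ltbp1 (probe set 10446928), which anchors the latent complex to the matrix, had log2 levels of 11.48, 11.50, 11.49 and 11.34 in knockout arrays 5 to 8, against 11.36, 11.33, 11.45 and 11.44 in control arrays 1 to 4. Knockout 8 lay among the control arrays, and the other knockout arrays were just above them. The log2 difference was 0.06 (SE 0.06, 95% interval -0.07 to 0.19, limma adjusted p = 0.731). Pmepa1 (probe set 10490159), a gene induced by TGF-beta whose product restrains SMAD signalling, had 12.59, 12.58, 12.69 and 12.56 in knockout arrays 5 to 8, against 12.98, 12.82, 12.86 and 12.78 in control arrays 1 to 4. All knockout arrays lay below all control arrays, and Pmepa1 fell to 83.6% of its control level (log2 difference -0.26, SE 0.06, 95% interval -0.39 to -0.12, limma adjusted p = 0.029). Leaving out control 1, 2 or 3 or knockout 5, 6 or 8 lost that call (largest adjusted p 0.092), as did leaving out control 1 together with control 4 (adjusted p = 0.128, difference -0.24).

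**Figure D2:**
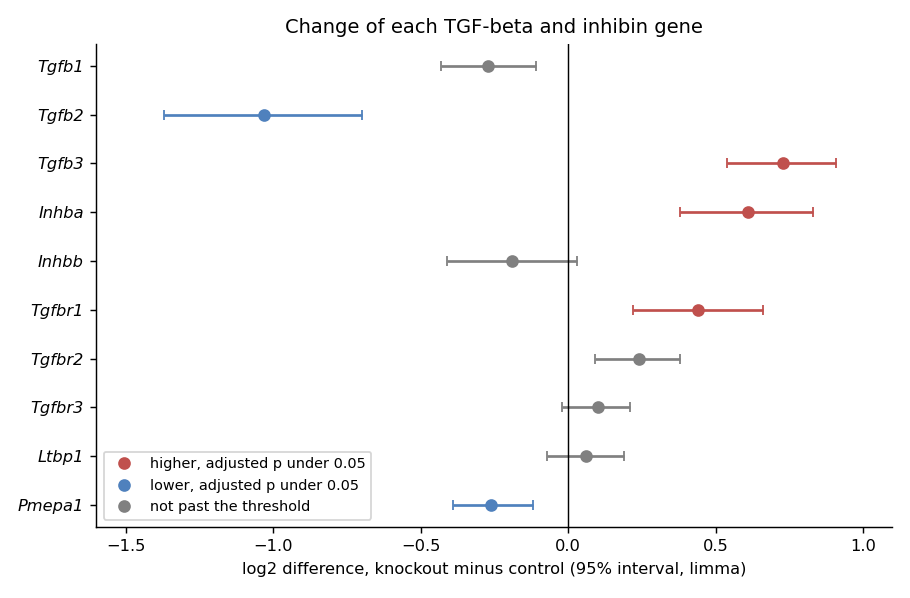
Log2 difference, knockout minus control, of each of the 10 genes with its 95% interval from limma; red and blue mark genes past an adjusted p of 0.05 and grey marks the others. Tgfb2 is farthest to the left at -1.03, and Tgfb3 (0.73), Inhba (0.61) and Tgfbr1 (0.44) are the red points.

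The genes with profiles most like those of the called members were sought by the root mean square difference over the 8 arrays, each gene centred on its own mean, which includes the difference between the groups. Nearest to Tgfb2 were Fam122b (0.110 log2 units), Alpl, alkaline phosphatase (0.134), and Dhh, the hedgehog ligand desert hedgehog (0.160), whose log2 differences were -1.11, -1.10 and -1.03. Nearest to Tgfb3 were Nek6, a mitotic kinase (0.071), Steap2, a metalloreductase (0.083), and Fbln5, the elastic fibre protein fibulin-5 (0.085), with log2 differences of 0.68, 0.72 and 0.61. Inhba had Slc46a3, Bcar3 and Phf24 as nearest genes, at 0.085 to 0.088. Tgfbr1 had Umps, an enzyme of pyrimidine synthesis, G0s2, an inhibitor of lipolysis, and Tsc22d1, at 0.070 to 0.082, of which Umps and Tsc22d1 did not pass the threshold. The nearest genes of Pmepa1 were Tmem65, Ybx3 and Slc35e4, at 0.020 to 0.032.

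Other genes of the pathway fell into 5 lists, and most of the calls lay in the list for latent TGF-beta and in that of genes TGF-beta induces. Of 22 measured genes for latency, storage and activation, 9 rose, 1 fell and 12 did not pass, with a median log2 difference of 0.05 against -0.02 over all genes. The largest rises were of Pcsk6, a proprotein convertase (log2 difference 2.52, SE 0.12), Plat, tissue plasminogen activator (1.07, SE 0.16), Mmp2, a gelatinase (1.05, SE 0.06), Thbs1, thrombospondin 1, which can release TGF-beta from its propeptide (0.70, SE 0.13), and Itgb8, the beta subunit of the integrin alpha v beta 8 that activates latent TGF-beta (0.56, SE 0.10). The beta subunit Itgb3 fell by 0.74 (SE 0.12), and Itgav, the alpha v partner of these subunits, had means of 11.95 in the knockout and 12.06 in the control group (limma adjusted p = 0.297). Of the other latent binding proteins, Ltbp3 rose by 0.33 (SE 0.07) and Ltbp2 by 0.47 (SE 0.12), while Ltbp4 had a difference of 0.06 (adjusted p = 0.727). The call of Ltbp2 was lost without any 1 array except knockout 8 (adjusted p up to 0.125), and Thbs1 had an adjusted p of 0.0901 without control 1 and control 4.

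Some receptors of activin were lower, and its antagonists did not pass. Of 12 measured activin receptors, inhibin subunits and antagonists, 3 fell and 9 did not pass (median -0.02). The log2 differences were positive for 4 of the 12 and negative for 8. The 3 were the receptors Acvr1c, also called ALK7 (-1.83, SE 0.11), Acvr2a, a type II receptor of activins (-0.71, SE 0.05), and Acvr1, also called ALK2 (-0.27, SE 0.05). The knockout mean of Acvr1c was 6.17, below the 95th percentile of receptor genes named above, so the size of its fall is uncertain, and Acvr1 had an adjusted p of 0.085 without control 1 and control 4. Inha, the inhibin alpha subunit, had means of 8.05 in the knockout and 8.02 in the control group, and Fst, the activin antagonist follistatin, 7.29 in the knockout and 7.36 in the control group. Among 12 coreceptors and receptor regulators, Nrp1, neuropilin 1, rose by 0.91 (SE 0.09) and 11 did not pass, with Eng, endoglin, at 13.56 in the knockout and 13.50 in the control group.

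Transcript levels of the SMADs that carry the TGF-beta signal did not pass the threshold. Of 19 SMADs and SMAD regulators, 0 rose, 1 fell and 18 did not pass in limma (median -0.05). At an unadjusted p under 0.05 in limma, 3 of the 19 were higher and 3 lower. Over all 19938 genes, 1776 were higher and 1708 lower at that unadjusted p. Smad1, a SMAD of the BMP branch, fell by 0.31 (SE 0.06), a call lost without control 4 or knockout 5 or 6 (adjusted p up to 0.0628). Smad2 had a log2 difference of 0.11 (adjusted p = 0.256), Smad3 of 0.19 (adjusted p = 0.13), Smad4 of -0.05 (adjusted p = 0.781) and the inhibitory Smad7 of -0.09 (adjusted p = 0.8). The corepressors Ski and Skil had log2 differences of -0.06 and -0.12, with adjusted p of 0.739 and 0.843. These are RNA levels, and SMAD activity is set largely by phosphorylation, which the arrays do not measure.

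Genes that TGF-beta is known to induce in mesenchymal cells went both ways. The 24 measured comprised 7 that rose, 3 that fell and 14 others (median 0.02). The largest rises were of Tnc, tenascin C (2.22, SE 0.15), Lox, lysyl oxidase (2.05, SE 0.18), Col3a1 (0.97, SE 0.06), Col1a1 (0.82, SE 0.08) and Tagln, an actin-binding protein (0.77, SE 0.13). The falls were of Adam12, a metalloprotease (-0.52, SE 0.08), Postn, periostin (-0.44, SE 0.07), and Snai1, a transcriptional repressor (-0.36, SE 0.08). The call of Snai1 was lost without control 1, 2 or 4 or knockout 6, 7 or 8 (adjusted p up to 0.0678). Ccn2, connective tissue growth factor, had means of 13.04 in the knockout and 13.33 in the control group (adjusted p = 0.38), and Acta2, smooth muscle actin, 9.06 in the knockout and 9.30 in the control group (adjusted p = 0.61). Beside these rises and those of the latency list, the mean log2 level of 10 portal fibroblast markers was 8.78 to 9.01 in knockout and 7.83 to 8.06 in control arrays. Over the 5 lists together, 17 of 89 measured genes rose and 8 fell, 28.1% of them, against 7.38% of all genes (3.76% higher and 3.63% lower). These lists were chosen with earlier results of these data known. Of these 25 calls, 21 held without each array in turn and 19 without control 1 and control 4 together.

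**Figure D3:**
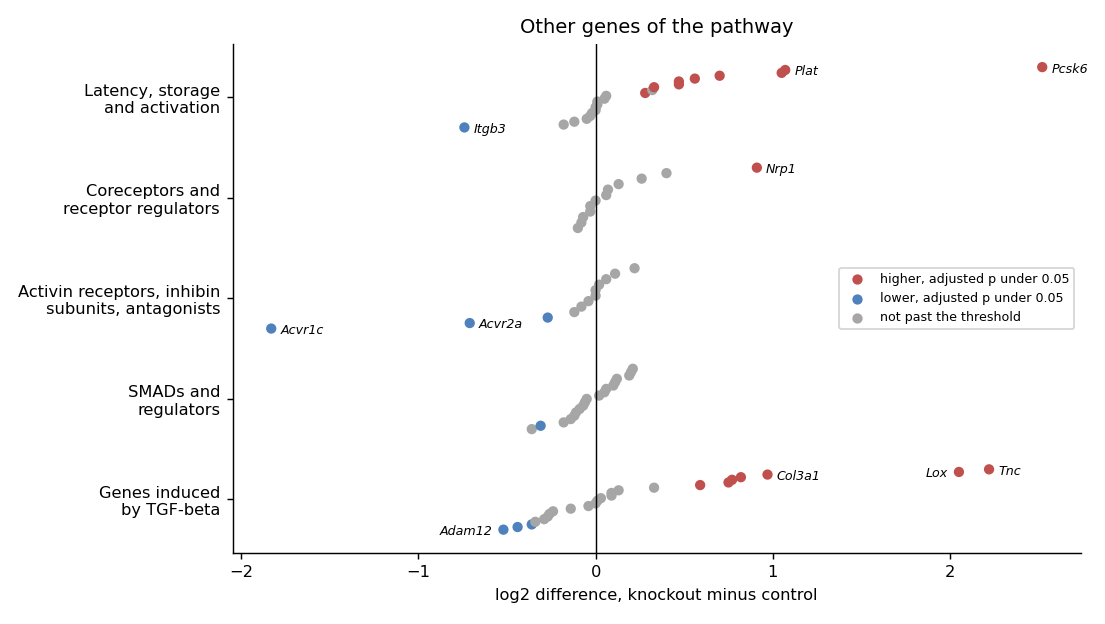
Log2 difference, knockout minus control, of each measured gene in the 5 pathway lists, ordered within a list; red and blue mark genes past an adjusted p of 0.05 in limma and grey the others. Red points are most frequent among the genes for latency, storage and activation (9 of 22) and the genes induced by TGF-beta (7 of 24), and absent among SMADs and activin receptors.

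Markers of other liver cells differed among the arrays, and some differed between the groups. The mean log2 level of 12 endothelial markers was 8.39 to 9.65 in knockout arrays and 8.35 to 10.90 in control arrays, with 1 of 12 called (Clec4g, lower). All 12 had negative log2 differences, with a median of -0.55. The mean level of 14 hepatocyte markers was 9.14 to 10.67 in knockout and 8.66 to 10.76 in control arrays, with 0 of 14 called in limma and 1 (Cyp2e1, lower) at an unadjusted p under 0.05. Control 4 had the most endothelial and the least hepatocyte signal, and control 1 the reverse. With the endothelial score as a covariate the log2 differences of Tgfb2, Tgfb3 and Inhba were -1.14, 0.73 and 0.61, and with the hepatocyte score -1.03, 0.73 and 0.61, all past the threshold. Knockout 7, with the highest hepatocyte score of its group, also had the highest Tgfb1, Tgfb2, Tgfb3, Inhba and Pmepa1 levels of its group. Kupffer cell and leukocyte markers averaged 7.30 to 7.76 in knockout and 7.32 to 8.12 in control arrays, with 1 of 13 called (Cd68, lower). At an unadjusted p under 0.05 in limma 4 were lower, with log2 differences of -1.24 for Vsig4 and -0.45 for Clec4f among them, and 0 higher. Over all 19938 genes, 1708 were lower and 1776 higher at that unadjusted p, and 7.38% were called at the adjusted threshold. Over the 13, 7 log2 differences were positive and 6 negative, with a median of 0.01.

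The mean of the portal fibroblast markers, given above, did not overlap between the groups. Of 10 measured, 5 were called, all higher, among them Cd34 (3.08), Dpep1 (2.37) and Dpt (2.28). The other 5 went both ways: Thy1, Gli1 and Entpd2 had log2 differences of -0.10, -0.01 and -0.29 (limma adjusted p of Entpd2 = 0.245). Fbln2 and Clec3b had 0.27 and 0.14 (limma adjusted p of Fbln2 = 0.101). Smooth muscle markers averaged 9.49 to 9.69 in knockout and 9.80 to 9.91 in control arrays. Of 8 measured, 3 were called as lower, led by Rgs4, and 5 did not pass. Most of the gap in this mean came from Rgs4, at 9.86 in the knockout and 11.45 in the control group. The median log2 difference over the 8 was -0.06, with 2 positive and 6 negative. Groups did not overlap for 3 as lower and for 1 as higher. A mean without Rgs4 was not computed. The mean of the stellate cell markers, Lhx2 included, was lower in each knockout array than in any control array. Of these 11 markers, 4 were called as lower, Lhx2 among them, and 7 did not pass. Log2 differences were positive for 3 of the 11 and negative for 8, and 6 had groups that did not overlap, all lower. The part of these portal fibroblast, smooth muscle and stellate cell markers in the changes of Tgfb2, Tgfb3, Inhba, Tgfbr1 and Pmepa1, and in those of the pathway lists, Mmp2, Tnc, Lox, Col1a1 and Col3a1 included, was not tested. Mesothelial markers averaged 7.01 to 7.09 in knockout and 6.99 to 7.27 in control arrays, with 1 of 9 called (Wt1, lower). Among them Upk1b, Krt19, Lrrn4 and Gpm6a had means below the 95th percentile of receptor genes in both groups. Cholangiocyte markers averaged 6.43 to 6.60 in knockout and 6.46 to 6.65 in control arrays. Of these, 0 of 6 were called in limma, also at an unadjusted p under 0.05. Epcam, Krt19, Cldn7 and Cftr had means below that percentile in both groups.

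**Figure D4:**
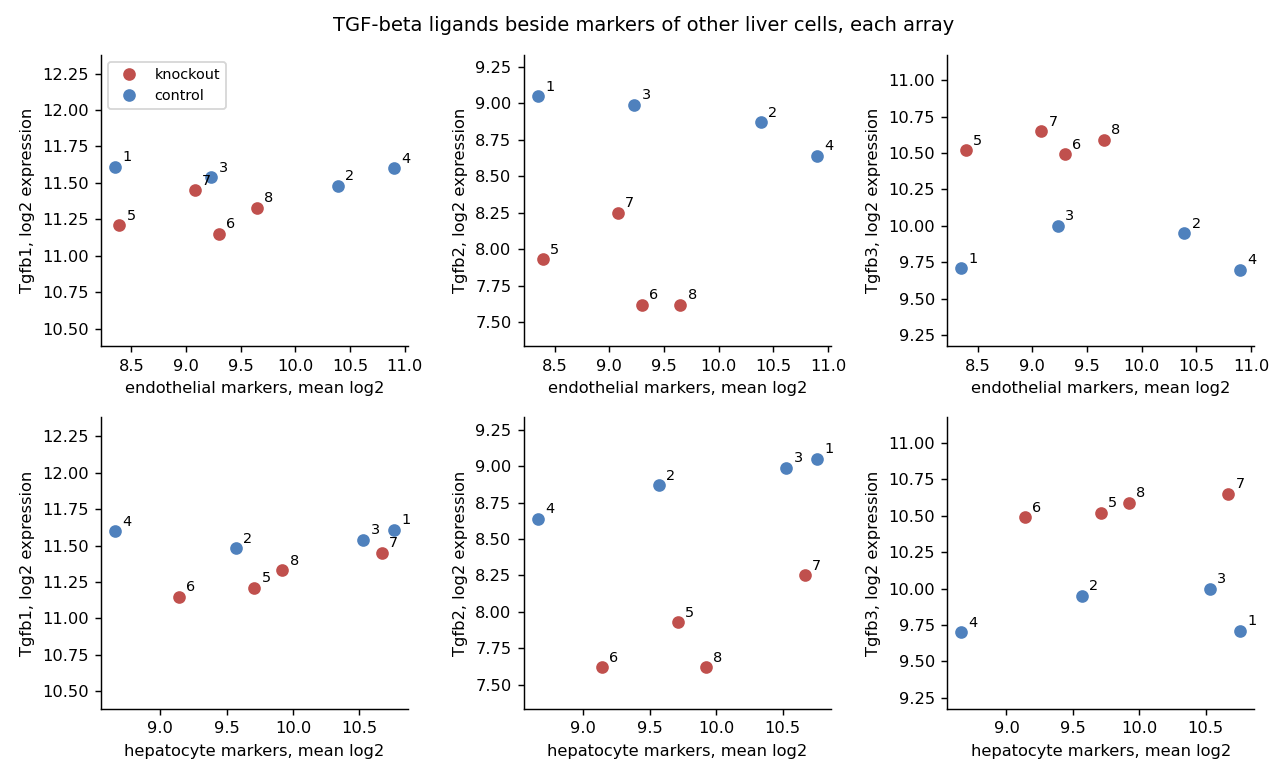
Log2 expression of Tgfb1, Tgfb2 and Tgfb3 in each knockout (red) and control (blue) array, numbered by replicate, against the mean log2 level of 12 endothelial markers (top) and 14 hepatocyte markers (bottom). The knockout points lie below all control points for Tgfb2 and above them for Tgfb3, whatever the marker level, since these groups do not overlap. Control 2 (10.39) and control 4 (10.90) lie above every knockout array in endothelial markers (9.65 at most), so they have no knockout array at a like level.

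**Figure D5:**
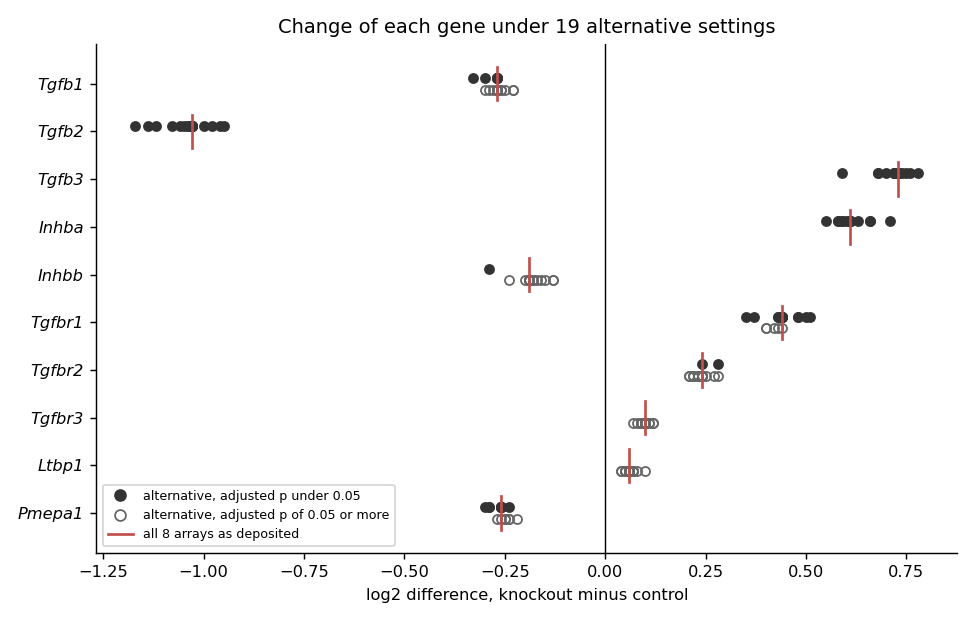
Log2 difference, knockout minus control, of each of the 10 genes under 19 alternative settings (points) and in the values as deposited (red line); filled points have an adjusted p under 0.05. All 19 points are filled for Tgfb2, Tgfb3 and Inhba, none for Tgfbr3 and Ltbp1, and every gene keeps its sign.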

How the data were processed

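The deposited values are log2 levels of probe sets, which the authors had normalized with RMA, per the submitters' processing notes and the labels' protocols, from 150 ng RNA per sample. Batches, scan dates and the RMA version were not given in the sources used here, and no batch could be tested. Of 35556 probe sets, 21789 had 1 gene symbol in the platform annotation. The probe set with the highest mean stood for a gene, which gave 19938 genes, and the 10 genes described had 1 probe set each. Groups came from sample titles. Knockout against control was fitted with limma 3.58.1 (lmFit, eBayes; R 4.3.3) across all genes without a filter. Tests were two-sided, p-values were adjusted across all genes by Benjamini-Hochberg, and the threshold was 0.05. The step was tested on simulated data with known changes. It recovered 72% of 50 genes changed by 0.5 log2 units and 96% of 50 changed by 1, with 16 false calls among unchanged genes. The number of arrays limits the precision.

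The members, the 5 pathway lists, the 8 marker lists and the alternatives were chosen with earlier results of these data known. The alternatives were other scalings, dim-gene filters, variance models, array weights, probe set choices, marker scores as covariates, leaving out arrays and stricter thresholds. Named genes were the members, Lhx2, up to 5 called genes per direction and list, fixed pathway genes, up to 3 markers per list and the 3 nearest profiles of each called member; Fbn1, one of the fixed pathway genes, was not analysed here. Exceptions chosen after their values were seen are Epcam, Krt19, Cldn7, Cftr, Upk1b, Lrrn4, Gpm6a, Thy1, Gli1, Entpd2, Fbln2, Clec3b, Vsig4, Clec4f and those in the closing section. Promoter sequences are from RefSeq.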

Additional observations from a re-analysis of the deposited data

Results flagged for a closer look

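Among 38 genes and marker scores in 2 groups each, 76 groups of 4 arrays were examined for an array far from the rest of its group, which chance alone gives in about 1 of 20 groups, and 2 were found. Ltbp1 had a log2 level of 11.34 in knockout 8, where the other knockout arrays had 11.48 to 11.50; without that array its log2 difference was 0.10 (limma adjusted p = 0.503). Adam12 had 8.83 in control 1, where the other control arrays had 9.05 to 9.09.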

How the results depend on the processing

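Tgfb2, Tgfb3, Inhba and Lhx2 passed the threshold in each of 19 alternative settings, and no gene among the 10 changed sign in any of them; each of the 10 has 1 probe set, so the settings on probe sets alter only the genes around them. The number of the 10 genes called lower was 1 to 3 when 1 array was left out, and 1 without control 1 and control 4, at an adjusted p under 0.01 and with a fold of at least 1.5, against 2. The number called higher was 2 to 4 over all alternatives, against 3. Over all genes, 371 were higher and 405 lower without control 1 and control 4, 386 and 389 at the stricter threshold, and 284 and 239 at 1.5-fold, against 749 and 723. Pathway genes called lower numbered 5 without those control arrays and 3 at 1.5-fold, against 8. Fewer arrays or a stricter threshold is part of how these settings are built. The median difference over all genes was -0.017 with median centring and -0.012 with quantile normalization, against -0.017 as deposited. No paired analysis was possible because the groups share no replicate numbers.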

Other observations

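Some pathway genes had groups that did not overlap without passing the threshold, and these were named after their values were seen. Lrrc32, also called GARP, which tethers latent TGF-beta to the cell surface, had means of 13.42 ± 0.15 in the knockout and 13.10 ± 0.12 in the control group (SD, n = 4 each; limma adjusted p = 0.0666). Nedd4l, a ubiquitin ligase that acts on activated SMADs, had 10.74 ± 0.10 in the knockout and 10.53 ± 0.02 in the control group (adjusted p = 0.0674). Smad6, an inhibitory SMAD of the BMP branch, had 9.67 ± 0.16 in the knockout and 10.03 ± 0.15 in the control group (adjusted p = 0.0634). Over the 5 lists, 21 of 89 measured genes were higher without overlap and 11 lower, where 6.38% and 6.32% of all genes were.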
